A study of Mus musculus with 2 samples.

Results

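The miR-181 family comprises 6 mouse microRNA (miRNA) genes in 3 genomic pairs, and its counted levels in adult hippocampus are described here. The members were chosen by gene symbol: the rows whose identifier carries the GENCODE M21 name Mir181a-1, Mir181b-1, Mir181a-2, Mir181b-2, Mir181c or Mir181d, 6 of the 2202 miRNA genes in each table. The rule uses no measured value. Small RNA was sequenced from hippocampus of wild-type C57BL/6 mice (strain B6NCrl) aged 6 months, with a size range below 30 bases given in the labels. The 2 libraries form 1 group and are numbered as biological replicates 1 and 2. The labels speak of male tissue but give the sex field as not collected, name a layer of the hippocampus without saying which, and list 1 donor identifier for both libraries. Whether separate animals were used is not stated, so a difference between the libraries may be technical, and no condition is compared with another.

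The libraries held 11106392 reads (replicate 1) and 12627039 reads (replicate 2), of which 4247092 and 5041568 were counted on miRNA genes. Reads that aligned to more than 1 place, 43.8% and 45.7% of all reads in replicates 1 and 2, are in no gene's count. Levels are in CPM, counts scaled to the reads on miRNA genes. A gene with 0 counts could have a level of up to 3 counts, which is 0.706 CPM for replicate 1 and 0.595 CPM for replicate 2. Intervals are exact 95% binomial intervals that treat each read as independent and cover counting error only. PCR copies of 1 molecule were counted separately where present, and the intervals are then too narrow. In bulk tissue, fewer cells of a type and less RNA per cell cannot be told apart. Markers of brain cells were present: neuronal Mir139 stood at 156599 and 153300 CPM, and oligodendrocyte Mir219a-2 at 3630 and 6444 CPM, in replicates 1 and 2. Of the 12 neuronal miRNA genes listed, 7 reached 10 CPM in both libraries. The neuronal Mir124a-2, whose mature sequence is encoded at several loci, had 2 counts in replicate 1 and 0 in replicate 2. Mir124a-1 had 6 and 8 counts, Mir124a-3 had 5 and 5, and Mir9-2 had 10 and 8. Mir9-3 reached 10 CPM in replicate 2 alone.

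A miRNA gene is transcribed as a hairpin, from which the enzymes Drosha and Dicer cut a short duplex with a 5p arm and a 3p arm. The strand loaded into an Argonaute protein guides it to messenger RNAs, mainly by pairing through the seed, bases 2 to 8 of the mature strand, and thereby lowers their translation and stability. The miR-181 family is best known from mouse thymocytes, where miR-181a sets the sensitivity of T cell receptor signalling. In cultured rat hippocampal neurons miR-181a has been tied to the level of an AMPA receptor subunit, and in rodent brain the family has been studied in ischaemia.

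The 5p arms are shown first because all 6 genes share their seed, in capitals below (mature sequences from RefSeq, build GRCm38.p6, matched by symbol for 6 of 6 genes).
mmu-miR-181a-5p, from Mir181a-1 and Mir181a-2: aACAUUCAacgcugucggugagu
mmu-miR-181b-5p, from Mir181b-1 and Mir181b-2: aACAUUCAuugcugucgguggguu
mmu-miR-181c-5p, from Mir181c: aACAUUCAaccugucggugagu
mmu-miR-181d-5p, from Mir181d: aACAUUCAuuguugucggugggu
Positions are counted from 1 at the 5′ end of the first-named arm. The seed ACAUUCA occurred in 4 of 1679 mature miRNA names of the RefSeq table (0.238%), all from these 6 genes. After the seed the arms fall into a pair of sequence types. The arms of miR-181a and miR-181b differ by A9U, C10U and A21G over the 23 bases compared, miR-181b and miR-181d differ by C12U alone over 23 bases, and miR-181c lacks base 11 of miR-181a and otherwise equals it over its 22 bases. Mir181a-1 and Mir181a-2 encode the same 5p arm, as do Mir181b-1 and Mir181b-2, whereas the 5p arms of Mir181c and Mir181d each stood in 1 annotated hairpin.

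The 3p arms are shown because they separate the loci that share a 5p arm. Capitals again mark bases 2 to 8.
mmu-miR-181a-1-3p: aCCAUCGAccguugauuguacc
mmu-miR-181a-2-3p: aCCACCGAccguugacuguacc
mmu-miR-181b-1-3p: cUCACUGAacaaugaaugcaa
mmu-miR-181b-2-3p: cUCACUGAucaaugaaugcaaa
mmu-miR-181c-3p: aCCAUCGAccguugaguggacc
mmu-miR-181d-3p: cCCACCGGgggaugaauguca
The miR-181a-1 and miR-181a-2 3p arms differ by U5C, which lies in the seed, and by U16C. The miR-181b-1 and miR-181b-2 3p arms differ by A9U and share the seed UCACUGA, and the miR-181a-1 and miR-181c 3p arms share the seed CCAUCGA. Each of the 6 distinct 3p arms stood in 1 annotated hairpin, so a read that covers a full 3p arm matches 1 of the 2202 hairpins.

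How far the loci of a shared 5p arm stay identical is shown by 30 bases of hairpin, read from the first base of the 5p arm, with capitals for the bases that differ between both loci.
Mir181a-1 (mm10 chr1:137966468-137966497, plus strand): aacauucaacgcugucggugaguuuggAau
Mir181a-2 (mm10 chr2:38852741-38852770, plus strand): aacauucaacgcugucggugaguuuggGau
Mir181b-1 (mm10 chr1:137966650-137966679, plus strand): aacauucauugcugucgguggguuGAaCug
Mir181b-2 (mm10 chr2:38853845-38853874, plus strand): aacauucauugcugucgguggguuUGaAug
The miR-181a loci were identical for 27 bases and first differed at base 28 (A28G), 5 bases past the end of the 23-base mature arm. The miR-181b loci were identical for 24 bases, the whole mature arm, and first differed at base 25 (G25U). A miR-181a 5p read from base 1 thus separates its loci only if it reaches base 28, and a miR-181b 5p read only if it reaches base 25. The counts do not separate the arms and give no read lengths, so which arm or which length was counted at each locus was not tested.

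Over whole hairpins, 347 of 379 windows of 20 bases (91.6%) from the 6 genes stood in no other annotated hairpin. The 32 windows held by a pair of hairpins overlapped the 5p arms: 9 in each miR-181a hairpin and 7 in each miR-181b hairpin. Mir181c (70 windows) and Mir181d (53 windows) shared none. Of all 2202 hairpins, 1133 (51.5%) shared at least 1 such window with another. The rest of the genome was not searched for copies.

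**Figure D1:**
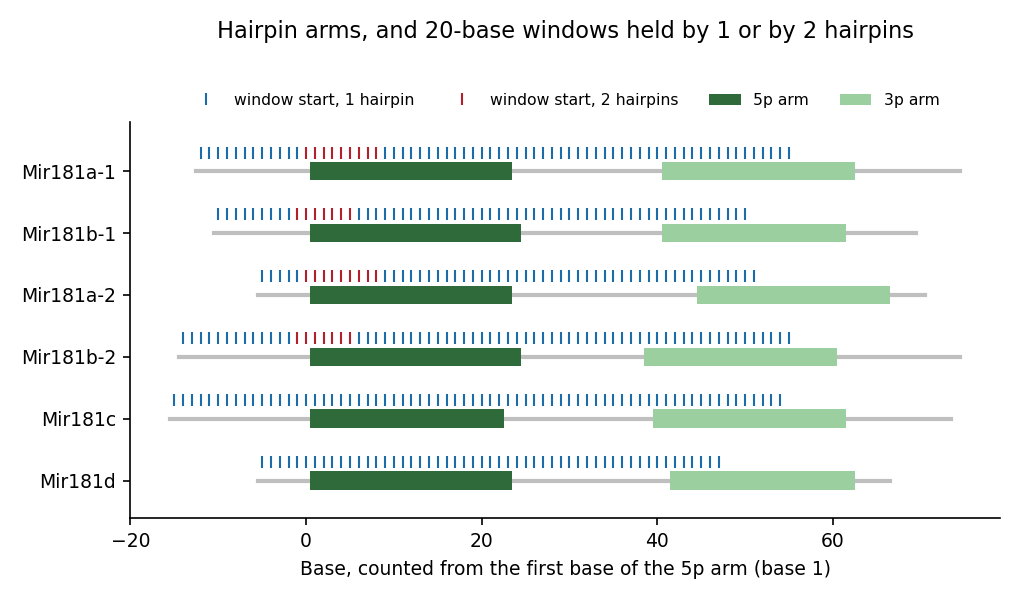
Hairpins of the 6 miR-181 genes, aligned at the first base of the 5p arm (x axis, bases). Grey lines are hairpins, boxes the mature arms, and ticks the first base of each 20-base window, red where a second annotated hairpin holds the window too; red ticks stand over the 5p arms of the 4 miR-181a and miR-181b hairpins (9 or 7 each), and Mir181c and Mir181d have none.

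The pairs lie on 3 chromosomes (mm10). Mir181a-1 (ENSMUSG00000065565.1, chromosome 1, 137966455 to 137966541) and Mir181b-1 (ENSMUSG00000065458.1, chromosome 1, 137966639 to 137966718) stand 97 bases apart on the plus strand. Both lie in an intron of the noncoding gene Gm4258. The whole of Mir181b-1 and 11 bases of Mir181a-1 also overlap an exon of the lincRNA gene A430106G13Rik on the same strand. Mir181a-2 (ENSMUSG00000065423.1, chromosome 2, 38852735 to 38852810) and Mir181b-2 (ENSMUSG00000065578.1, chromosome 2, 38853830 to 38853918) stand 1019 bases apart on the plus strand, opposite an intron of Nr6a1, which encodes an orphan nuclear receptor. Mir181b-2 also stands opposite an exon of Gm44144. Mir181c (ENSMUSG00000065483.2, chromosome 8, 84178873 to 84178961) and Mir181d (ENSMUSG00000076338.1, chromosome 8, 84178716 to 84178787) stand 85 bases apart on the minus strand, in an intron of Nanos3, a gene for an RNA-binding protein of germ cells. All 6 genes had 0 counts on the opposite strand in both libraries.

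Each of the 6 members was detected, that is, it reached 10 CPM in replicate 1 and in replicate 2, a level attained by 13.7% of all 2202 genes (302 genes). Mir181b-2, whose 5p arm is shared with Mir181b-1, had 7639 counts (1799 CPM) in replicate 1 and 7954 counts (1578 CPM) in replicate 2, a mean of 1688 ± 156 CPM (SD, n = 2). Mir181d had 6781 counts (1597 CPM) in replicate 1 and 6801 counts (1349 CPM) in replicate 2, a mean of 1473 ± 175 CPM. Mir181c had 3532 counts (832 CPM) in replicate 1 and 4346 counts (862 CPM) in replicate 2, a mean of 847 ± 21.5 CPM. These 3 genes supplied 93.7% of the family's counted reads in replicate 1 and 94.3% in replicate 2.

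Both miR-181a genes and Mir181b-1 were counted at lower levels. Mir181a-1 had 999 counts (235 CPM) in replicate 1 and 866 counts (172 CPM) in replicate 2, a mean of 203 ± 44.9 CPM. Mir181a-2 had 87 counts (20.5 CPM) in replicate 1 and 177 counts (35.1 CPM) in replicate 2, a mean of 27.8 ± 10.3 CPM. Mir181b-1, the lowest by mean, had 116 counts (27.3 CPM) in replicate 1 and 107 counts (21.2 CPM) in replicate 2, a mean of 24.3 ± 4.31 CPM. The counted levels thus spanned an 87.8-fold range in replicate 1 and a 74.3-fold range in replicate 2 among genes with the same 5p seed.

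**Figure D2:**
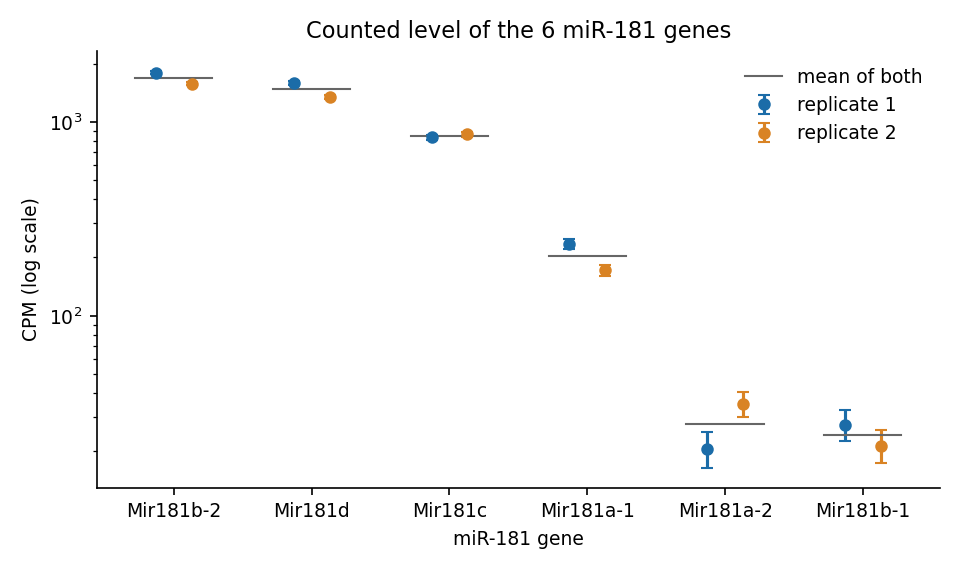
Counted level of each miR-181 gene in CPM (y axis, log scale), with exact 95% intervals of counting error as bars; points are the libraries and grey lines the mean of both. Mir181b-2, Mir181d and Mir181c stand between 832 and 1799 CPM in both libraries, Mir181a-1 at 172 to 235 CPM, and Mir181a-2 and Mir181b-1 change places between the libraries.

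By mean CPM the order was Mir181b-2, Mir181d, Mir181c, Mir181a-1, Mir181a-2 and Mir181b-1, at ranks 72, 75, 102, 165, 258 and 264 of all genes. The ranges of Mir181b-2 and Mir181d over both libraries overlapped, although within a library Mir181b-2 was ahead, by 1.13 times in replicate 1 (95% interval 1.09 to 1.16) and 1.17 times in replicate 2 (1.13 to 1.21). A miRNA read covers about 1 mature arm whatever the length of the hairpin, so CPM was not divided by length, but per 100 bases of hairpin Mir181d was ahead of Mir181b-2, with means of 2046 and 1897 CPM per 100 bases. The ranges of Mir181a-2 and Mir181b-1 overlapped as well: Mir181a-2 had 0.75 times the counts of Mir181b-1 in replicate 1 (0.561 to 0.999) and 1.65 times in replicate 2 (1.29 to 2.12). The ranges of the other neighbours in this order did not overlap.

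The genes of a pair are thought to be processed from 1 primary transcript, and their counts were set side by side within each pair. At the chromosome 1 pair, Mir181b-1 had 0.116 times the counts of Mir181a-1 in replicate 1 (95% interval 0.0950 to 0.141) and 0.124 times in replicate 2 (0.100 to 0.151). At the chromosome 2 pair the order was the other way round: Mir181b-2 had 87.8 times the counts of Mir181a-2 in replicate 1 (71.1 to 109.8) and 44.9 times in replicate 2 (38.7 to 52.5). At the chromosome 8 pair, where neither 5p arm is shared, Mir181d had 1.92 times the counts of Mir181c in replicate 1 (1.84 to 2.00) and 1.56 times in replicate 2 (1.51 to 1.63). The ratio within the chromosome 1 pair had overlapping intervals in both libraries, and the intervals of the other pairs did not overlap.

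The loci that share a mature 5p arm were unequal too. Mir181b-2 had 65.9 times the counts of Mir181b-1 in replicate 1 (54.8 to 79.8) and 74.3 times in replicate 2 (61.4 to 90.8). For miR-181a the chromosome 1 locus was ahead: Mir181a-1 had 11.5 times the counts of Mir181a-2 in replicate 1 (9.22 to 14.5) and 4.89 times in replicate 2 (4.16 to 5.78). These ratios compare reads aligned to 1 place at each locus. They do not rank the primary transcripts or the mature miR-181a and miR-181b, since multimapping reads are in no gene's count. For the same reason the levels of Mir181a-1, Mir181b-1, Mir181a-2 and Mir181b-2 cannot be set against those of Mir181c and Mir181d as levels of mature miRNA.

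Summed over the 6 genes, the family held 0.451% of the counted reads in replicate 1 (95% interval 0.445 to 0.457%) and 0.402% in replicate 2 (0.396 to 0.407%), a mean of 0.426% ± 0.0349 (SD, n = 2). Within the family, Mir181c and Mir181d supplied 53.8% of the counted reads in replicate 1 (53.1 to 54.6%) and 55.0% in replicate 2 (54.4 to 55.7%). Mir181a-2 and Mir181b-2 supplied 40.3% in replicate 1 (39.6 to 41.0%) and 40.2% in replicate 2 (39.5 to 40.8%). Mir181a-1 and Mir181b-1 supplied 5.82% in replicate 1 (5.49 to 6.16%) and 4.80% in replicate 2 (4.51 to 5.11%). The chromosome 2 pair thus kept its share of the family within counting error, while the share of the chromosome 1 pair was higher in replicate 1 by intervals that do not overlap.

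**Figure D3:**
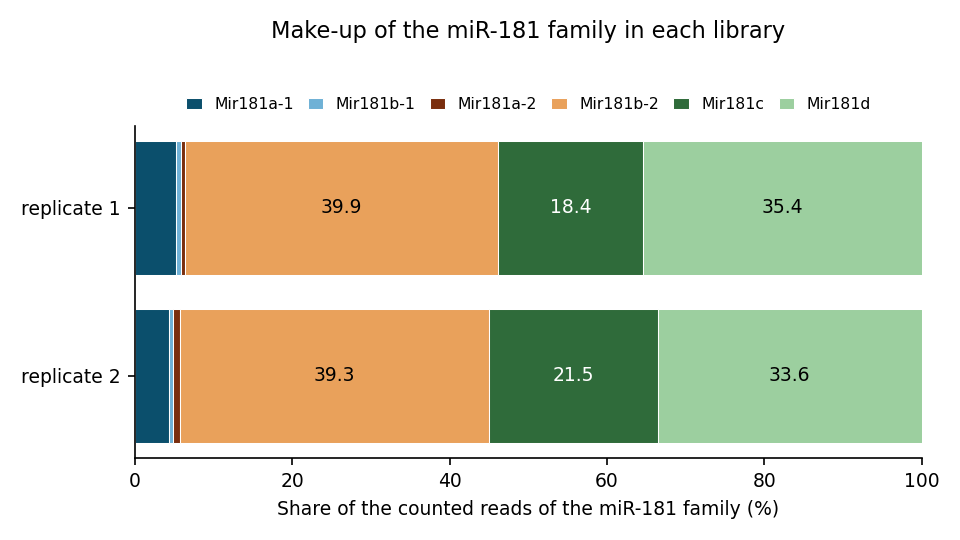
Share of the counted reads of the miR-181 family from each gene (x axis, %), 1 bar per library, coloured by gene with the chromosome 1, 2 and 8 pairs in turn. Mir181b-2 supplied 39.9% in replicate 1 and 39.3% in replicate 2, Mir181d 35.4% and 33.6%, and Mir181c 18.4% and 21.5%.

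The counts of each gene in both libraries were compared by an exact two-sided binomial test, with Benjamini-Hochberg adjustment over the 522 genes with at least 10 counts. The test compares the reads of 2 libraries and not conditions, and 51% of all tested genes passed it at 0.05, 22.8% as higher and 28.2% as lower in replicate 1. The balance of calls turned with the scaling: 119 genes were higher and 147 lower in replicate 1 as reported, against 135 and 123 with TMM and 135 and 122 with DESeq2 size factors, which set the libraries' scale from the ratios of many genes. Of the 6 miR-181 genes, 4 passed: Mir181a-1, Mir181b-2 and Mir181d were higher in replicate 1 and Mir181a-2 was lower. The share of members that passed is to be read against that of all tested genes.

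Mir181a-2 differed most, with a log2 ratio of -0.77 (replicate 1 over replicate 2, exact 95% interval -1.16 to -0.40, exact adjusted p = 8.8e-05). Mir181a-1, which encodes the same 5p arm, moved the other way, with a log2 ratio of 0.45 (0.32 to 0.59, exact adjusted p = 4.5e-11). Mir181d had a log2 ratio of 0.24 (0.19 to 0.29, exact adjusted p = 4.5e-22) and Mir181b-2 of 0.19 (0.14 to 0.23, exact adjusted p = 1.3e-15). Mir181b-1 had a log2 ratio of 0.36 and did not pass (-0.03 to 0.76, exact adjusted p = 0.11). Mir181c had a log2 ratio of -0.05 and did not pass (-0.12 to 0.01, exact adjusted p = 0.18), and its sign turned under the other scalings.

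Of the 6 genes, 5 differed by no more than 1.5-fold between the libraries, the exception being Mir181a-2, as did 60.5% of the 522 tested genes. The median log2 ratio was 0.22 over the 6 genes and -0.09 over all tested genes. The median absolute log2 ratio was 0.30 over the 6 genes and 0.46 over all tested genes. The tested genes include some with as few as 10 counts, where counting error alone widens the ratios, whereas each member had at least 87 per library. They were not matched for level, so these values do not show that the members agree better than other genes. The libraries also differed in markers of cell types, and in 3 of the 5 lists genes passed the test in both directions. The 5 choroid plexus and ependyma miRNAs summed to 9225 CPM in replicate 1 and 3148 in replicate 2, with Mir204 ahead in both (7102 and 2780 CPM). Of these 5, 3 passed the test as higher in replicate 1 and 1, Mir449a, as lower (17.7 and 28.0 CPM). The 3 oligodendrocyte miRNAs summed to 5817 CPM in replicate 1 and 8786 in replicate 2, and most of that gap came from Mir219a-2. Mir338 also passed as lower in replicate 1 (2175 and 2333 CPM, log2 ratio -0.10), but not with TMM or DESeq2 size factors (adjusted p = 0.26 and 0.33), and Mir219a-1 did not pass (11.3 and 9.72 CPM). The 3 endothelial and mural miRNAs summed to 8456 and 8769 CPM in replicates 1 and 2. Their leading gene Mir126a was lower in replicate 1 (5706 and 7027 CPM), whereas Mir143 (2456 and 1545 CPM) and Mir145a (294 and 197 CPM) were higher. Of the 11 neuronal miRNAs tested, 4 passed as higher and 3 as lower in replicate 1, against 4 and 1 with TMM and with DESeq2 size factors. The neuronal Mir132 was among the higher ones (32072 and 14605 CPM), and Mir9-3 among the lower (7.53 and 51.0 CPM). Among the neuronal genes that passed, Mir132 and Mir9-3 differed most. The others, Mir139, Mir128-1, Mir128-2, Mir138-1 and Mir138-2, had log2 ratios between -0.10 and 0.13. Of the 5 lymphocyte and leukocyte miRNAs, 3 passed as higher in replicate 1 and 0 as lower. They were Mir150 (log2 ratio 0.13), Mir146 (0.22) and Mir223 (0.90, from 49 and 31 counts), and Mir142 and Mir155 did not pass. Over all 522 tested genes, 22.8% passed as higher and 28.2% as lower in replicate 1. With so few genes in a list, nothing is read from the numbers of calls. Per the labels, adapters were trimmed under separate protocol versions for replicate 1 and replicate 2. The part of these differences in the miR-181 ratios was not tested, and the protocol version and the library cannot be told apart.

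**Figure D4:**
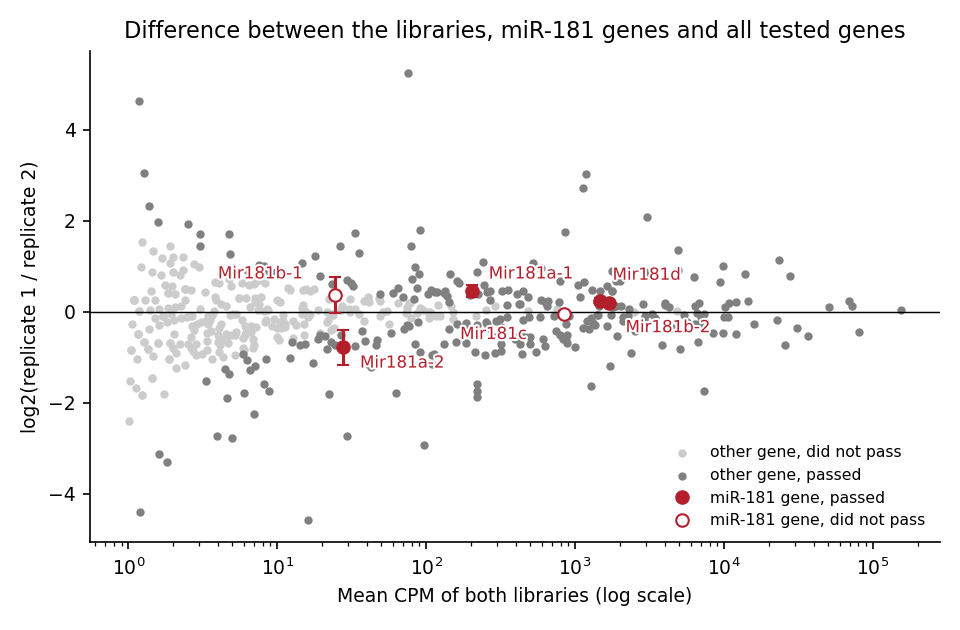
Log2 ratio of replicate 1 over replicate 2 (y axis) against mean CPM (x axis, log scale) for the 522 tested genes; grey points are other genes, darker where they passed the exact binomial test, and red points the 6 miR-181 genes with exact 95% intervals, open where they did not pass. Mir181a-2 lies lowest of the 6 at -0.77 and Mir181a-1 highest at 0.45, inside the scatter of the other genes.

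Since the family is best known from lymphocytes, a list of lymphocyte and leukocyte miRNAs was measured beside it. All 5 lymphocyte and leukocyte miRNAs had counts, 3 of 5 reached 10 CPM in both libraries, and they summed to 2926 CPM in replicate 1 and 2627 in replicate 2. Mir150, a lymphocyte miRNA, supplied 73.1% and 74.2% of that sum (2138 and 1949 CPM). Mir146 stood at 713 and 611 CPM, and Mir142, a miRNA of blood cell lineages, at 7.77 and 6.35 CPM. The miR-181 family summed to 4510 CPM in replicate 1 and 4017 in replicate 2. Whether the listed miRNAs came from blood cells or from other cells of the tissue was not tested, nor was the part of blood cells in the miR-181 levels.

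The family was set beside families of similar build. Across the miR-181 family the highest gene, Mir181b-2, supplied 39.9% and 39.3% of the family's counted reads in replicates 1 and 2. In the miR-30 family, of 6 genes that were all detected, Mir30d supplied 64.8% and 62.3%, and in the miR-29 family, of 4 genes that were all detected, Mir29a supplied 95.7% and 95.2%. These families summed to 17758 and 16115 CPM (miR-30) and to 15059 and 18390 CPM (miR-29) in replicates 1 and 2. Multimapping reads enter none of these sums or shares. The part of each family lost in this way was not tested and may differ between families. The sums and shares thus describe counted reads and do not rank the families, or their leading genes, by mature miRNA. The numbers of higher and lower calls in replicate 1 were 3 and 1 for miR-181, 3 and 2 for miR-30, and 0 and 3 for miR-29, and for miR-30 they were 4 and 2 with TMM and 4 and 1 with DESeq2 size factors. Over all tested genes, 22.8% were called higher and 28.2% lower in replicate 1, and with 4 to 6 genes a family nothing is read from these counts. No test of a difference between families was made.

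For each member, the 2 genes with the closest counted levels were found by the distance between log2(CPM + 1) values over the 2 libraries, which reflects mostly the level. They were Mir1839 and Mir676 for Mir181b-2, Mir128-2 and Mir93 for Mir181d, and Mir455 and Mir323 for Mir181c, all at distances of 0.0904 to 0.196. Mir181a-1 was closest to Mir351 (221 CPM in replicate 1 and 172 in replicate 2) and Mirlet7a-2 (252 and 194 CPM). Mir181b-1 was closest to Mir135a-2 and Mir101a, and Mir181a-2 to Mir1188 and Mir504. Because the distance covers both libraries, the closest genes tend to have a like ratio by the way they were chosen. The log2 ratio of replicate 1 over replicate 2 was -0.77 for Mir181a-2, -0.73 for Mir504 and -0.51 for Mir1188. This likeness is therefore no separate sign of a shared difference.

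Of the 3 pairs, the chromosome 8 pair was the only one with another miRNA gene of the tables within 50000 bases. Mir23a, on the opposite strand 29556 bases away, stood at 10571 CPM in replicate 1 and 9819 in replicate 2, above Mir181c and Mir181d in both. Its partners Mir27a and Mir24-2 stood at 102 and 33.9 CPM in replicate 1 and at 71.0 and 32.5 CPM in replicate 2. Multimapping reads enter none of these levels, so they do not rank the mature miRNAs. Gm25110, 21838 bases to the other side, had 0 counts in both libraries, and Mir3074-2 had 0 and 2 counts. These neighbours were chosen by position, after values of the tables had been seen.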

How the data were processed

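Read counts per miRNA gene were deposited by the authors as 1 table per library, not normalised; per the file headers they refer to mm10 and GENCODE M21. For aligner and counter, names were not given in the sources used here, nor were versions. Each table holds 2202 genes and 4 summary rows, which entered neither library sizes nor tests, and 3 count columns, which by their sums hold unstranded counts, sense counts (used here) and antisense counts. Members, lists and tests were chosen with earlier results of these data known. CPM is over all gene rows. Log2 ratios have 0.5 counts added. One group gives no replicated comparison, so edgeR's quasi-likelihood test could not be fitted. An exact binomial test over all genes with at least 10 counts was used instead and tried on simulated data. Apart from folds set for some genes, the simulated counts varied by counting error alone, as the test assumes. That trial therefore does not show how the test behaves on these libraries. The genes named were the 6 members, the 2 closest in level to each, overlapping genes and the leading gene of each marker list; other names were added after their values were seen. Hairpins came from the M21 transcripts. Alternatives were TMM (edgeR 4.0.16), DESeq2 1.42.0 size factors, other count columns, minimums, windows and left-out replicates. Python 3.11.15, scipy 1.17.1 and R 4.3.3 were used.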

Additional observations from a re-analysis of the deposited data

How the results depend on the processing

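The count of 4 members past the between-library test was the same under the 5 alternatives run for it. The count of 6 members detected was the same under its alternatives except a minimum of 100 CPM, which 4 members reached. With all reads of the library as denominator, the family share was 0.166%, since the denominator then also holds reads that are in no gene's count. Of all reads in replicates 1 and 2, 43.8% and 45.7% aligned to more than 1 place, and 15.1% and 11.4% did not align. How many of the multimapping reads came from miRNA genes was not tested. The log2 ratio of Mir181c, -0.05 as reported, was 0.021 with TMM and 0.024 with DESeq2 size factors, which moved every log2 ratio by about 0.07 and 0.08. The adjusted p of Mir181b-1 ranged from 0.052 to 0.16 and that of Mir181c from 0.071 to 0.65. No paired analysis was possible because there is 1 group. Depth limits Mir181a-2 and Mir181b-1 most, with 87 to 177 counts. For the other lists, scalings were added after seeing the data: the calls higher and lower in replicate 1 were the same in number for 4 of the 7 lists, and otherwise were 4 and 1 for neuron with both scalings, 0 and 1 for oligodendrocyte with both, and 4 and 2 with TMM and 4 and 1 with DESeq2 size factors for miR-30.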
